A study of Mus musculus with 4 samples.

Results

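The genes described here are 10 members of the R-spondin and Wnt feedback system, measured in sciatic nerve of mice that lack the kinase LKB1 in Schwann cells and of control mice. They were taken by name: every probe whose platform gene symbol was Rspo1, Rspo2, Rspo3, Lgr4, Lgr5, Lgr6, Znrf3, Rnf43, Axin2 or Lef1 was used, which gave 20 probes out of 45281 on the array. Of the 10 genes, 4 had 1 probe, 4 had 2 probes and 2 had 4 probes. The set was chosen by pathway, with the normalized intensities of LKB1-SCKO against control pools already known, among them the low Rspo1 value of the mutant. The members' differences between genotypes are therefore given as a description, without p-values.

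RNA was measured on Illumina beadchips with 1 colour. There were 2 arrays of LKB1-SCKO nerves and 2 arrays of control nerves, and each array carried RNA pooled from 3 nerves of 3 different mice, so that 6 mice stood behind each genotype. LKB1-SCKO mice lacked LKB1 (gene Stk11) in Schwann cells, and control mice carried the floxed LKB1 gene without Cre recombinase. All mice were at postnatal day 60, on a mixed FVB/C57BL/6 background, an age chosen to lie before axon degeneration in the mutant. The promoter that drives Cre is not given in the sources used here, and whether other cells of the nerve retained LKB1 was not measured.

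R-spondins are secreted proteins that raise the sensitivity of a cell to Wnt ligands. They bind the receptors LGR4, LGR5 and LGR6 together with the membrane ubiquitin ligases ZNRF3 and RNF43, which otherwise remove Frizzled receptors from the cell surface, and so leave more Frizzled available. Once beta-catenin reaches the nucleus it works with TCF and LEF factors, and AXIN2, RNF43, ZNRF3, LGR5 and LEF1 are themselves known as products of Wnt target genes in many tissues, with AXIN2, RNF43 and ZNRF3 acting as brakes on the pathway.

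The promoter-proximal sequence of Rspo1, the member detected in control pools alone, and that of Axin2, the best known feedback target of the pathway, are given here as the 250 bases before the annotated start, 5′ to 3′ on the plus strand. They come from RefSeq (GRCm38.p6), where Rspo1 lies at chr4:124986180-124986429 and Axin2 at chr11:108920099-108920348.
Rspo1: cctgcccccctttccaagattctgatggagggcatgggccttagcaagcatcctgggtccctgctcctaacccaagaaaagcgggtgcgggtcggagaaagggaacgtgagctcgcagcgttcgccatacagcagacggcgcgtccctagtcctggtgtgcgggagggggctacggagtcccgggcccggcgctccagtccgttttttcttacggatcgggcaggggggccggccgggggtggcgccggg
Axin2: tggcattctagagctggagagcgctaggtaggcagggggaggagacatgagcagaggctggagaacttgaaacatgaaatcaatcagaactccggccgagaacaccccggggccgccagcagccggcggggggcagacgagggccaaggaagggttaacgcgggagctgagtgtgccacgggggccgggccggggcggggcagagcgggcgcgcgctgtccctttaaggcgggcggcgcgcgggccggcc
Both stretches are rich in G and C, at 66.8% for Rspo1 and 69.2% for Axin2. The motifs CTTTGAT and CTTTGAA, versions of the TCF and LEF core, were searched on both strands in windows from 250 bases before to 50 bases after the start. A match would be in capitals, and there was none in these sequences. RefSeq windows were at hand for 6 of the 10 genes (Rspo1, Lgr4, Lgr6, Rnf43, Axin2 and Lef1), 10 windows in all, and 0 of these 10 held either motif, against 8.65% of the 32851 promoter windows of all genes. Lef1 gave several of the windows, some of them overlapping, and 10 windows are too few to set the members apart from that share. The sequences are a description of these windows, and binding was not measured.

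Of the 10 genes, 5 had no probe above background on any array: Rspo2, Lgr4, Znrf3, Rnf43 and Lef1. A probe was taken as detected on an array when its detection p-value, which ranks the probe's signal against negative control probes, was under 0.05. Of the 20 probes, 7 were detected on at least 1 array, whereas 52.0% of all probes on the array were, and 3 were detected on 4 of 4 arrays, whereas 38.8% of all probes were. Testing required detection on both arrays of at least 1 genotype, and 43.6% of all probes met this. The 4 member probes that met it belonged to Rspo1, Lgr5, Lgr6 and Axin2, and the other 6 genes were not tested. Rspo1 met it through the control pools alone, where it was high, so its presence among the tested genes already required a difference in detection.

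**Figure D1:**
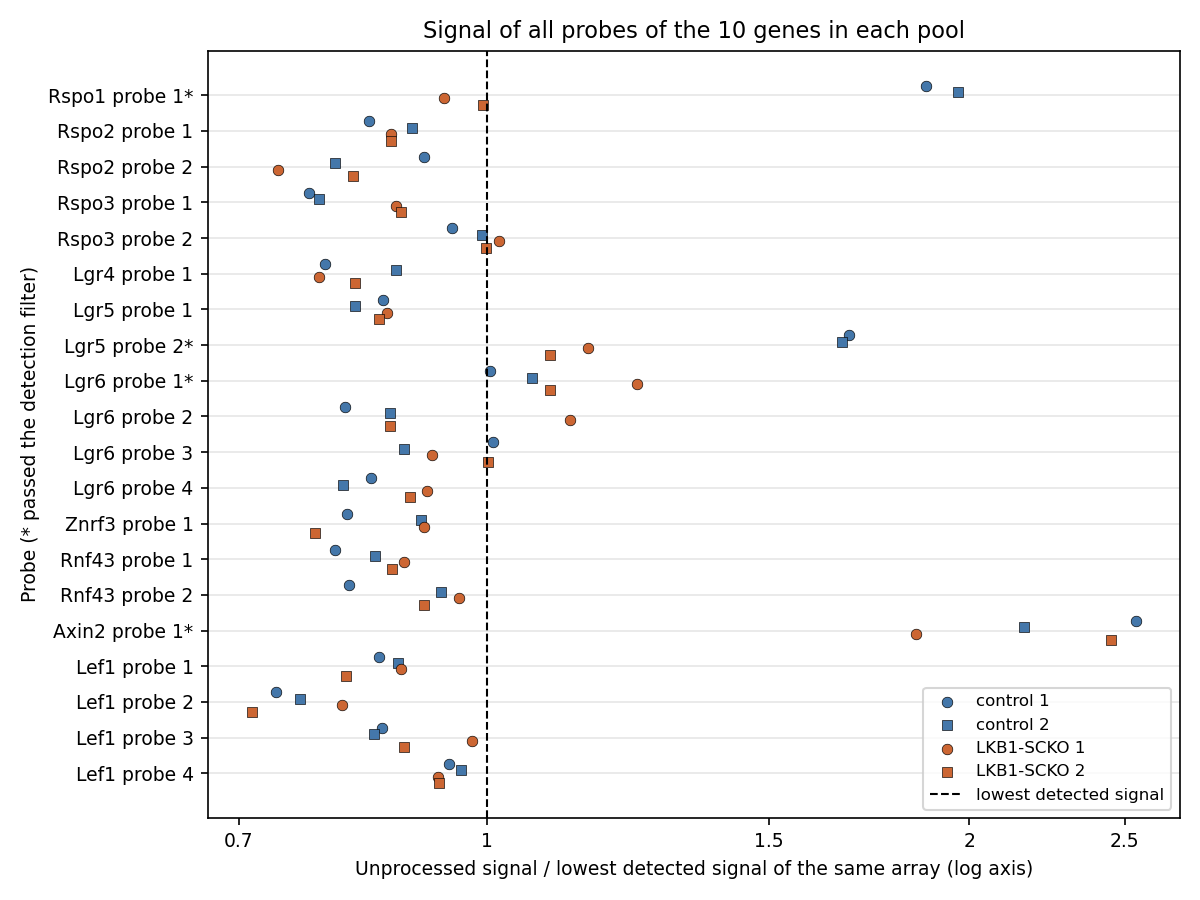
Unprocessed signal of each of the 20 probes in each of the 4 pools, divided by the lowest detected signal of the same array (log axis), so that points right of the dashed line were detected; asterisks mark the 4 probes that were tested. Rspo1 lies at 1.88 and 1.97 in the control pools and at 0.939 and 0.994 in the LKB1-SCKO pools, and points left of the line carry no measured level.

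Among the ligands, Rspo1 was detected in both control pools and in neither LKB1-SCKO pool. The unprocessed signal of its probe, ILMN_2686865, was 301 in control 1, 320 in control 2, 149 in LKB1-SCKO 1 and 175 in LKB1-SCKO 2. The control pools lay well above the lowest detected signals of their arrays (160 and 163), and the LKB1-SCKO pools just below theirs (159 and 176). The detection p-value was 0 in both controls, 0.223 in LKB1-SCKO 1 and 0.0545 in LKB1-SCKO 2, so that LKB1-SCKO 2 missed detection narrowly.

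After background correction and normalization, Rspo1 stood at log2 intensities of 7.44 and 7.51 in the control pools and of 4.87 and 5.24 in the LKB1-SCKO pools. The groups did not overlap, and the fitted log2 difference was -2.42 (LKB1-SCKO minus control, SE 0.169, n = 2 pools per genotype). Because the mutant pools were below detection, this fitted value has no rank among the genes and only a bound holds. On the scale of this background correction and normalization, Rspo1 was at least 4.80-fold lower in LKB1-SCKO. For this bound the control mean was set against the mean of the lowest detected signals. It does not hold across ways of processing, as the mean unprocessed signals differed 1.92-fold. The fitted size depended on how background was handled, as the log2 difference was -0.95 without background correction, -1.65 with a larger offset and -3.07 with the authors' processed values.

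The other R-spondins were at or close to background. Rspo2, the family member known for its role in limb and lung development, had 2 probes with signals from 131 to 146 in control pools and from 118 to 153 in LKB1-SCKO pools, and neither was detected on any array. Rspo3, which is best known from blood vessels and intestinal stroma, came close to the limit at 1 of its 2 probes. That probe, ILMN_3162785, had signals of 152 and 161 in the control pools and of 162 and 175 in the LKB1-SCKO pools. Only LKB1-SCKO 1 passed detection (detection p-value 0.0353), LKB1-SCKO 2 missed it at 0.0524, and control 2 missed it at 0.063, so the probe stayed just outside the filter. The other Rspo3 probe was undetected on all 4 arrays. Whether another R-spondin changed was not detectable at this signal over background.

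Among the receptors, Lgr5 was lower in LKB1-SCKO while still detected in all 4 pools. LGR5 is an R-spondin receptor known as a marker of stem cells in the intestine and hair follicle. The signal of its probe ILMN_2650008 was 270 in control 1, 271 in control 2, 184 in LKB1-SCKO 1 and 192 in LKB1-SCKO 2. The control pools were nearly equal, and both LKB1-SCKO pools were clearly dimmer. The LKB1-SCKO pools lay close to the detection limit, at 1.16 and 1.09 times the lowest detected signal of their arrays.

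Log2 intensities of Lgr5 were 7.15 and 7.09 in control pools and 5.92 and 5.77 in LKB1-SCKO pools. The log2 difference of -1.28 (SE 0.134, n = 2 pools per genotype) was a 2.42-fold lower level, larger than the distance between pools of a genotype (0.065 and 0.15). The log2 difference was -0.52 without background correction and -1.52 with the authors' processed values, and the mean unprocessed signals differed 1.44-fold. The other Lgr5 probe, ILMN_1241448, was undetected on all 4 arrays and cannot bear on the difference, so Lgr5 rested on 1 probe.

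Lgr6, a related receptor, stood on the other side of 0. Its probe ILMN_2609504 gave signals of 161 and 174 in control pools and of 197 and 192 in LKB1-SCKO pools, all detected, control 1 only just (detection p-value 0.0481). Log2 intensities were 5.23 and 5.48 in controls and 6.22 and 5.77 in LKB1-SCKO. The pools did not overlap, and the log2 difference of 0.64 (SE 0.201, n = 2 pools per genotype) did not pass the whole-table threshold.

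The remaining 3 Lgr6 probes did not meet the filter. ILMN_2609505 was detected in LKB1-SCKO 1 (signal 179) and in no other pool (131 to 153). ILMN_2675471 was detected in 1 pool of each genotype, and ILMN_2980093 in none. Lgr4, usually the most widely present of these receptors, had 1 probe, with signals of 127 and 143 in control pools and of 125 and 145 in LKB1-SCKO pools, and was undetected on all 4 arrays. A low level of Lgr4 would not have been detectable with this probe.

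**Figure D2:**
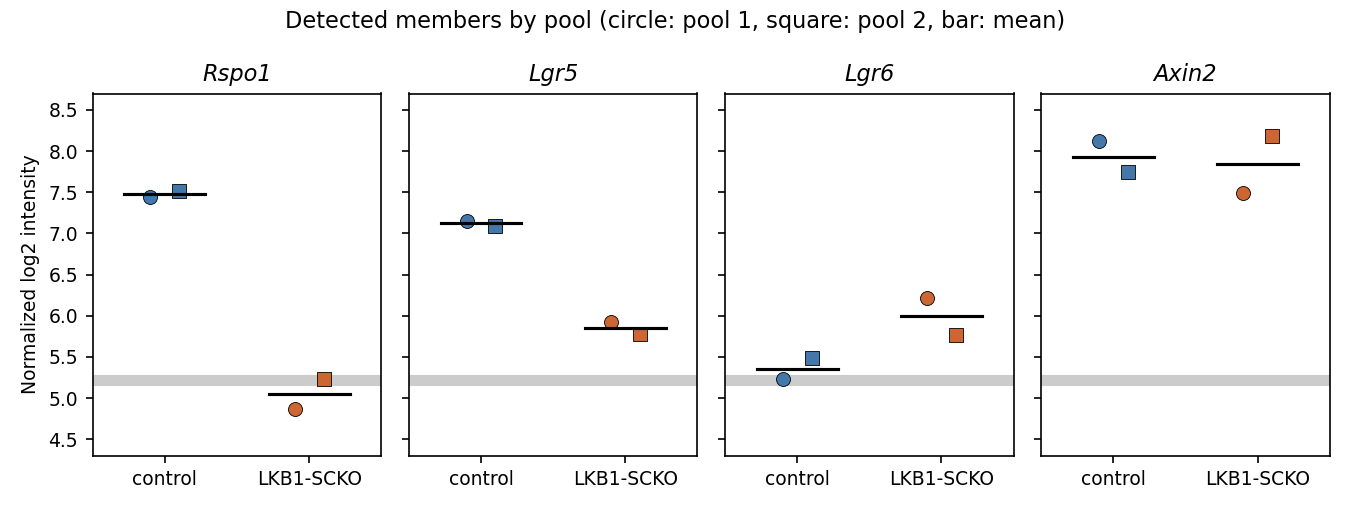
Normalized log2 intensity of the 4 tested members in each pool (circles for pool 1, squares for pool 2 of a genotype, horizontal lines for means); the grey band spans the lowest detected level of the 4 arrays, from 5.16 to 5.27. Rspo1 and Lgr5 lie lower in both LKB1-SCKO pools, where Lgr5 comes close to the limit. Lgr6 lies close to the limit and higher in LKB1-SCKO, and the Axin2 pools overlap.

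The ubiquitin ligases that R-spondins act on were not detected. Znrf3 had 1 probe with signals of 131 and 148 in control pools and of 145 and 137 in LKB1-SCKO pools. Rnf43 had 2 probes, with signals from 129 to 152 in control pools and from 141 to 160 in LKB1-SCKO pools.

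Axin2, which encodes a scaffold of the complex that degrades beta-catenin and is widely used as a readout of Wnt activity, was detected in all 4 pools and did not separate the genotypes. Its signal was 407 in control 1, 352 in control 2, 295 in LKB1-SCKO 1 and 430 in LKB1-SCKO 2. The highest and the lowest of the 4 values both came from LKB1-SCKO pools. Log2 intensities were 8.12 and 7.74 in controls and 7.50 and 8.18 in LKB1-SCKO, a log2 difference of -0.10 (SE 0.271, n = 2 pools per genotype). The log2 difference turned to 0.25 when LKB1-SCKO 1 was left out and to -0.44 when LKB1-SCKO 2 was left out, and to 0.09 when control 1 was left out. The distance between the LKB1-SCKO pools was 0.69, larger than any of these values.

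Lef1, a transcription factor partner of beta-catenin, was undetected with all of its 4 probes on all 4 arrays, with signals from 118 to 157 in control pools and from 125 to 164 in LKB1-SCKO pools. In all, 13 of the 20 probes were undetected everywhere. Their signals lay between 118 and 164 and their log2 differences between -0.20 and 0.28, values that order background rather than transcripts.

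Over the 4 tested members, 2 were lower past the threshold of the whole-table fit (limma, Benjamini-Hochberg adjusted p under 0.05 over all genes), namely Rspo1 and Lgr5, and 0 were higher. The same 2 were called when each kept probe was tested on its own, as were 2.52% of the 19732 kept probes. Over all 10858 genes 3.79% were called, 1.34% as lower and 2.46% as higher. Pools did not overlap between genotypes for 3 of the 4 members and for 55.1% of all genes tested. The median log2 difference was -0.69 over the 4 members and 0.012 over all genes. Since the comparison was known when the members were chosen, nothing is read from these counts. Lgr5 was not past the threshold when control 1 or control 2 was left out, with log2 differences of -1.24 and -1.31.

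**Figure D3:**
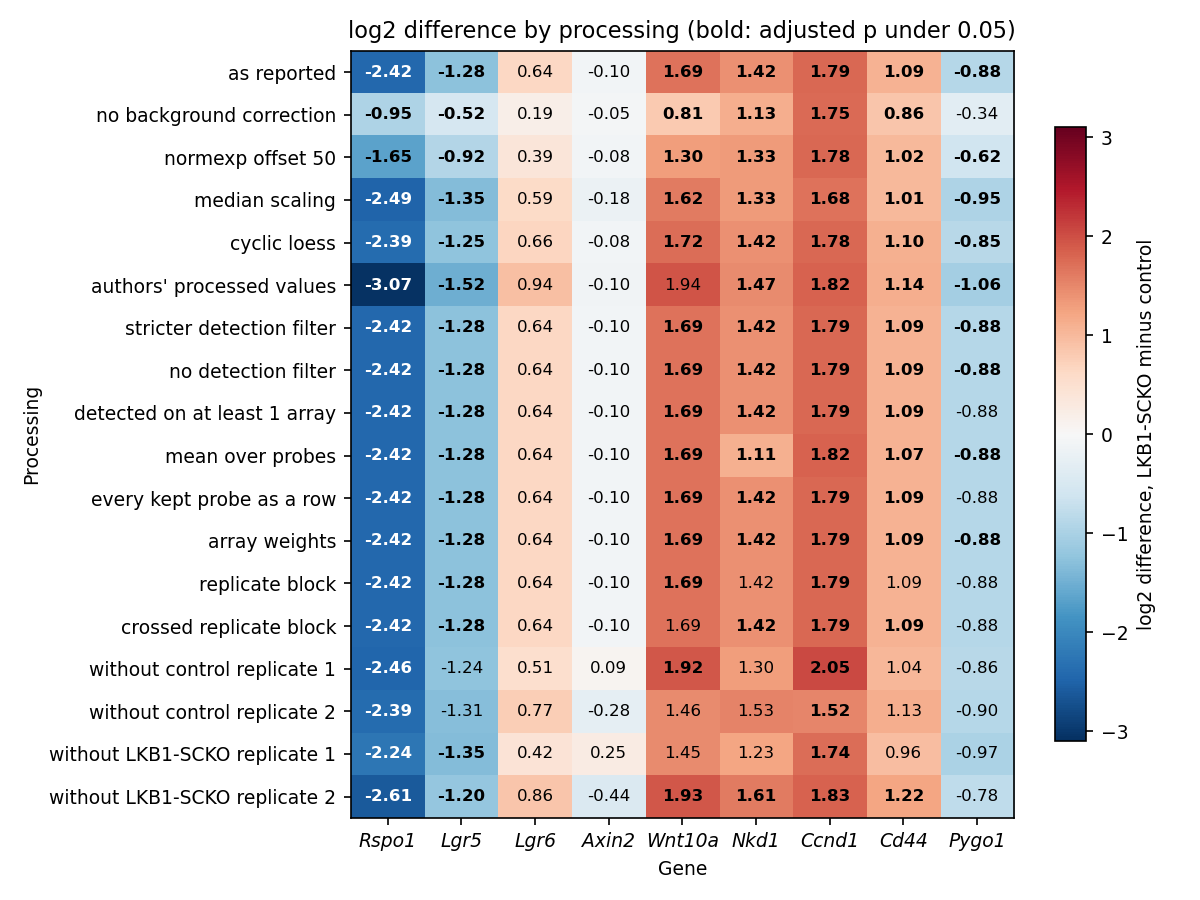
Log2 difference (LKB1-SCKO minus control) of the 4 tested members and of 5 other Wnt pathway genes under the reported processing and 17 alternatives, with values in bold where the adjusted p was under 0.05. Rspo1 ranges from -3.07 to -0.95 and Lgr5 from -1.52 to -0.52, and Axin2 changes sign when single pools are left out.

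Other genes of the Wnt pathway were counted in 6 lists of 117 genes, of which 72 were tested. Of these 72, 4 rose, 1 fell and 67 did not pass (limma, Benjamini-Hochberg over all genes), a called share of 6.94% against 3.79% of all genes. The median log2 difference was -0.036, with 32 genes above 0 and 40 below, beside 0.012 over all genes. Most of the pathway thus showed no difference past the threshold, and the genes that did lay among the ligands, the nuclear partners and the reported targets.

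Of 21 Wnt ligands and related activators, 5 were tested, and 1 rose, beside 2.46% of all genes called higher. Wnt10a, a Wnt ligand known from tooth, hair and fat cell biology, stood at log2 intensities of 6.27 and 5.82 in control pools and of 7.98 and 7.50 in LKB1-SCKO pools. The pools did not overlap, and the log2 difference was 1.69 (SE 0.238, limma adjusted p = 0.0303). Leaving out control 2 ended the call (log2 difference 1.46, adjusted p = 0.103), as did leaving out LKB1-SCKO 1 (1.45, adjusted p = 0.0614). Wnt10a thus lay on the opposite side of 0 from Rspo1, the secreted enhancer.

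Among 17 tested genes of Wnt release and reception none passed, with a median of -0.11. At an unadjusted p under 0.05 there were 3 of the 17, beside 22.4% of all genes tested. The brightest were Fzd2, a Frizzled receptor (log2 difference -0.03, limma adjusted p = 0.935), and Ryk, a Wnt co-receptor (0.12, adjusted p = 0.629). Among 13 tested secreted and membrane inhibitors of the pathway none passed, with a median of 0.062. Of these inhibitors, 7 of the 13 had an unadjusted p under 0.05, beside the same 22.4% of all genes. The brightest were Dkk3, a member of the Dickkopf family (0.65, adjusted p = 0.172, and 0.38 without LKB1-SCKO 2), and Sostdc1, a secreted antagonist (-0.58, adjusted p = 0.099).

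Of the 15 tested genes that control beta-catenin none passed, with a median of 0.024, and 2 of the 15 had an unadjusted p under 0.05, again beside 22.4% of all genes. Ctnnb1, the gene of beta-catenin itself, stood at 0.34 (limma adjusted p = 0.276, with 0.19 without LKB1-SCKO 1 and 0.12 as the mean over its probes), and Ctnnbip1, which encodes an inhibitor of its binding to TCF, at 0.061 (adjusted p = 0.861). Among 12 tested TCF factors and partners 1 fell, beside 1.34% of all genes called lower. Pygo1, a nuclear co-factor of beta-catenin, stood at 6.79 and 6.76 in control pools and at 5.99 and 5.80 in LKB1-SCKO pools, a log2 difference of -0.88 (SE 0.138, adjusted p = 0.039). Leaving out each pool in turn ended its call every time, with an adjusted p between 0.0675 and 0.173.

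Reported Wnt targets held 3 of the 4 rises. Of 20 genes 10 were tested, and 3 rose, 0 fell and 7 did not pass, with a median of -0.092. Over all genes 2.46% were called higher. At an unadjusted p under 0.05 there were 4 of the 10, beside 22.4% of all genes tested. Nothing is read from shares in lists of this size. Ccnd1, the cyclin D1 gene of cell cycle entry that other growth signals also control, stood at 12.09 and 11.56 in control pools and at 13.66 and 13.57 in LKB1-SCKO pools. Its log2 difference was 1.79 (SE 0.208, limma adjusted p = 0.0186), and its other probes gave 1.71 and 1.96. Nkd1, a feedback inhibitor that acts on Dishevelled, stood at 8.20 and 8.43 in control pools and at 9.92 and 9.54 in LKB1-SCKO pools.

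The log2 difference of Nkd1 was 1.42 (SE 0.184, limma adjusted p = 0.0261), and 0.81 at its dimmer probe. Cd44, the gene of a hyaluronan receptor that is also present on immune cells, stood at 8.33 and 8.43 in control pools and at 9.60 and 9.34 in LKB1-SCKO pools, a log2 difference of 1.09 (SE 0.151, adjusted p = 0.029), and 1.05 at its other tested probe. The call of Ccnd1 held without each pool (adjusted p from 0.0191 to 0.0499). Those of Nkd1 and Cd44 were lost without control 1 (adjusted p = 0.086 and 0.11), control 2 (0.0781 and 0.123) or LKB1-SCKO 1 (0.0514 and 0.0727). The feedback genes Axin2 and Nkd1 thus differed in outcome on these arrays, though the difference between them was not tested.

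**Figure D4:**
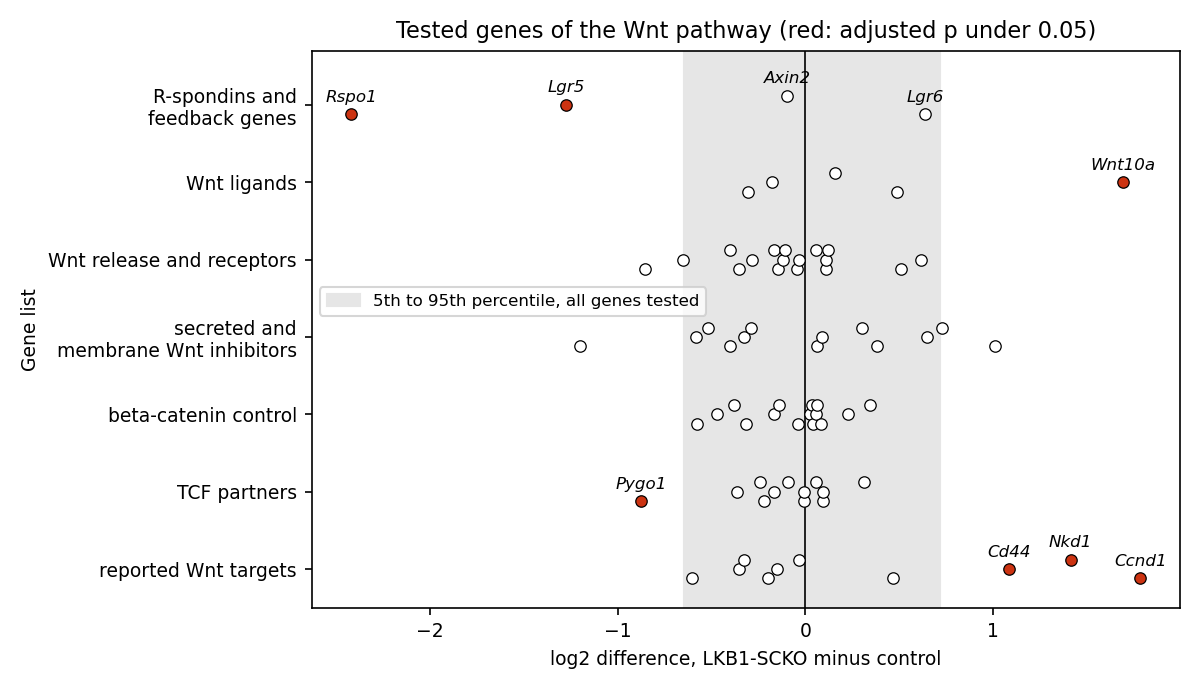
Log2 difference (LKB1-SCKO minus control) of each tested gene of the Wnt pathway by list, in red where the adjusted p was under 0.05; the grey area spans the 5th to 95th percentile of all genes, from -0.65 to 0.72. Rspo1, Lgr5 and Pygo1 lie left of it, and Wnt10a, Ccnd1, Nkd1 and Cd44 right of it. Some genes that were not called, among them Frzb, Adgra2 and Kremen1, also lie outside it, and most other genes inside it.

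The genes whose profile over the 4 arrays was closest to that of Lgr5 were Adgrl3, Gprasp2, Slit2, Itga3 and Vstm4. Likeness was the root mean square difference between log2 profiles centred on their own means, which was 0.053, 0.059, 0.074, 0.080 and 0.082 for these genes, with log2 differences from -1.41 to -1.24. No such list is given for Rspo1, which had no measured level in LKB1-SCKO pools. With 4 arrays, a profile holds little more than the difference between genotypes and the distance between pools.

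Array-wide checks bear on these values as follows. Between 19588 and 20627 probes were detected per array. Stk11, the targeted gene, was lower in LKB1-SCKO (log2 difference -0.80, limma adjusted p = 0.0448, a call that ended whichever pool was left out), and its probe was not placed relative to the deletion. The 8 markers of myelinating Schwann cells that were tested were detected in all 4 pools, Mbp among them at 15.89 and 15.75 in controls and 15.70 and 15.85 in LKB1-SCKO.

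Sums over several lists of cell type markers moved along with the genotypes, though not every marker of a list did. In the direction of Rspo1 and Lgr5, log2 levels summed over 8 myelinating Schwann cell markers were 111.4 and 111.9 in control pools and 108.9 and 109.2 in LKB1-SCKO pools, with 1 called lower. Of these 8 markers, 2 were above 0 and 6 below. Over 7 tested markers of other Schwann cells the sums were 65.7 and 65.3 in controls and 63.2 and 62.9 in LKB1-SCKO (1 called lower). Of these, 3 were above 0, among them Ngfr at 0.55, and 4 below. The largest falls were those of Scn7a (-1.79) and Cdh2 (-0.60), which met the filter through the control pools alone in the case of Cdh2. Over 11 tested fibroblast markers the sums were 122.1 and 123.6 in controls and 121.3 and 117.7 in LKB1-SCKO (0 called, 3 above 0 and 8 below). In the direction of Cd44 and Ccnd1, sums over 9 tested macrophage markers were 79.7 and 84.6 in controls and 91.2 and 89.1 in LKB1-SCKO, with 3 called higher. With 0 called, the sums of 4 further lists lay above both controls in each mutant pool. Over 4 tested red blood cell markers they were 43.0 and 39.8 in controls and 45.4 and 50.4 in LKB1-SCKO, with a median log2 difference of 1.52. Over 6 tested mast cell markers they were 48.6 and 47.8 in controls and 50.7 and 50.8 in LKB1-SCKO. Of these, Fcer1a met the filter through the LKB1-SCKO pools alone. Over 5 tested T and NK cell markers the sums were 26.44 and 26.35 in controls and 28.01 and 28.52 in LKB1-SCKO, with 3 markers above 0 and 2 below. Cd3e and Nkg7 (log2 differences 0.86 and 0.71) met the filter through the LKB1-SCKO pools alone, where they were high. Cd247 and Cd2 stood at -0.03 and -0.05. Over 8 tested perineurial markers the sums were 76.3 and 74.5 in controls and 77.6 and 76.5 in LKB1-SCKO. Of these markers 5 were above 0 and 3 below.

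Of 7 melanocyte markers 4 were tested and 3 were called higher. Sums over the 4 were 21.8 and 20.1 in controls and 33.4 and 33.9 in LKB1-SCKO, and Tyr, Mlana and Slc45a2 did not enter the test. The 3 called, Tyrp1, Dct and Pmel, were each detected in 1 control pool. They met the filter through the LKB1-SCKO pools alone, where they were high, so their entry to the test depended on their level in the mutant. Skeletal muscle markers separated the LKB1-SCKO pools from each other, as Axin2 did, with sums over 10 markers of 115.7 and 114.4 in controls, 96.2 in LKB1-SCKO 1 and 118.0 in LKB1-SCKO 2 (0 called). The part of these cell types in the results was not tested. In whole nerve, fewer cells of a type and less RNA per cell cannot be told apart.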

How the data were processed

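Per the file headers, the authors deposited unnormalized signal intensities with a detection p-value beside each, for 45281 probes on 4 arrays. Their second table holds processed intensities with values below 0, and its sorted columns differ by at most 0.841 between arrays. How it was made is not given in the sources used here, beyond GenomeStudio (2010) in the submitters' processing notes. Probe symbols came from the platform annotation, 34807 of 34885 updated through RefSeq gene identifiers (GRCm38.p6). Intensities were corrected by normexp of limma 3.58.1 (R 4.3.3), with negative controls inferred from detection p-values and an offset of 16, then quantile normalized and set on the log2 scale. Kept probes (19732) had a detection p under 0.05 in both pools of 1 genotype or more, and the brightest kept probe stood for its gene (10858 genes). The comparison of genotypes used lmFit and eBayes (two-sided), with Benjamini-Hochberg adjustment over all genes at 0.05, after the fit was tested on simulated data. A smallest exact two-sided permutation p of 0.333 is all that 2 against 2 pools allow. The number of arrays limits the precision. Alternatives changed the background, scaling, filter, probe summary, array weights, pairing or the pools used, with the pools left out after normalization.

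Members and gene lists were chosen with earlier results of these data known. The named pathway genes were, per list, up to 4 past the threshold by size of log2 difference, or the 2 brightest where none passed. No p-value is given for a member.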

Additional observations from a re-analysis of the deposited data

How the results depend on the processing

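Rspo1 and Lgr5 were both past the threshold in every alternative that used all 4 pools. This is no added support for either gene. The members were chosen with their intensities known, for Rspo1 with its low mutant value, and the alternatives used the same arrays. With a pool left out, from 1 to 2 members were called, Rspo1 alone without control 1 or control 2. The count of called genes, 412 as reported, was 635 without background correction and 172 with the replicate block, and from 112 to 483 without 1 pool. With every kept probe as a row, 497 probes were called, against 849 without background correction, 803 with an offset of 50, 284 with the authors' processed values, 257 without a detection filter, 252 with the replicate block and from 94 to 534 without 1 pool. Other Wnt pathway genes, 5 as reported, came to 2 with the replicate block (Wnt10a and Ccnd1) and to 3 (Nkd1, Ccnd1 and Cd44) when numbers were crossed, and from 1 to 5 without 1 pool. Of the called probes 325 were higher and 172 lower, against 239 and 197 with median scaling. Without background correction Wnt10a stood at 0.81 and Pygo1 at -0.34 (limma adjusted p = 0.0813, over a range of 0.0322 to 0.173), and with the authors' processed values Wnt10a stood at 1.94 (adjusted p = 0.0516, over a range of 0.0163 to 0.103). The causes of these changes were not tested, beyond fewer pools in the fits that left out 1.

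The replicate numbers are labels of 2 pools and do not show a pairing: deviations of same-numbered pools correlated at -0.172 across genes. With the numbers crossed, a fit chosen after seeing the data, 349 genes and 380 probes were called. The values of Ctnnbip1 and Fzd2, close to 0, changed sign: Ctnnbip1 was -0.038 with median scaling and from -0.082 to 0.20 without 1 pool, and Fzd2 from -0.18 to 0.12 without 1 pool. Lgr6 kept its direction in all 17 alternatives (0.19 to 0.94) and was never called. Signal over background limits 16 of the 20 probes, which were not tested.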

Other observations

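Some Wnt pathway genes that missed the threshold had pools that did not overlap. Pools did not overlap for 54.2% of the 72 tested pathway genes and for 55.1% of all genes, so this does not set them apart. The genes given here are examples, picked out after their values were seen. Frzb, which encodes a secreted Frizzled-related inhibitor, stood at 8.27 and 7.54 in control pools and at 6.71 and 6.70 in LKB1-SCKO pools (log2 difference -1.20, limma adjusted p = 0.0752). Adgra2, a co-receptor for certain Wnt ligands on endothelium, stood at 6.67 and 6.87 in controls and at 5.81 and 6.02 in LKB1-SCKO (-0.85, adjusted p = 0.0531). Kremen1, a receptor for Dickkopf inhibitors, lay on the other side, at 8.68 and 8.71 in controls and at 9.34 and 9.51 in LKB1-SCKO (0.73, adjusted p = 0.0559). Some alternatives called these genes: Kremen1 without background correction, with an offset of 50 and with the stricter detection filter, Adgra2 with median scaling, the stricter filter and the mean over probes, and Frzb without control 2. Sostdc1 and Nr4a2 were called without background correction.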
